A study of Mus musculus with 12 samples.

Results

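Grb10 and 5 further genes that flank Ddc on mouse chromosome 11, namely Cobl, Ikzf1, Fignl1, Zpbp and Spata48, were followed in embryonic hearts that carried a mutant Ddc allele. The members were all array probes that the platform annotation assigns to these genes by current or older symbol, with Ddc itself left out. This gave 16 probes of 6 genes, out of 34875 probes of 19056 genes that have a single symbol: 3 probes for Grb10, 3 for Cobl, 6 for Ikzf1, 1 for Fignl1, 2 for Zpbp and 1 for Spata48. The rule uses gene position and symbol and none of the measured values, but it was set with earlier results of these data known.

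Whole hearts were dissected at E15.5 and each was hybridized to 1 Illumina WG-6 expression array, 12 in all. The mutant allele is a gene trap of Ddc, and all mutants descend from this 1 line. The single KO heart (Ddc-/-) carried it on both chromosomes, 4 PatKO hearts (Ddc+/-) had inherited it from the father, 4 MatKO hearts (Ddc-/+) had inherited it from the mother, and 3 WT hearts had neither mutant copy. PatKO and KO hearts were also combined as ablated hearts (n = 5) and set against MatKO and WT hearts combined as controls (n = 7). Homozygous embryos are lost in part before this stage according to the methods, so the KO heart is from a survivor, and its single array was assumed to vary like the other groups.

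Imprinted genes are expressed mainly from the copy of 1 parent. In mouse, Grb10, which encodes an adaptor protein that binds the insulin and IGF receptors and restrains fetal growth, is expressed from the mother's copy in most tissues and from the father's copy in neurons, whereas the heart transcript of its neighbour Ddc, Ddc_exon1a, is expressed from the father's copy. In PatKO hearts the mutant allele therefore lies on the chromosome whose Grb10 copy is mostly silent, and in MatKO hearts it lies on the chromosome whose Grb10 copy is mostly active. The comparison of PatKO with MatKO hearts asks whether levels of the flanking genes depend on which parental chromosome is mutated. The comparisons with WT ask whether these levels differ where a mutant allele is present. Sequence inherited along with the mutant allele was not typed here, so its part cannot be told apart from that of the mutation. PatKO and MatKO hearts differ in Ddc level as well as in the mutated chromosome, so these cannot be told apart. The arrays read total RNA and do not separate the parental copies.

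In the RefSeq annotation of GRCm38.p6 the genes lie on chromosome 11 in the order Zpbp, Spata48, Ikzf1, Fignl1, Ddc, Grb10, Cobl. Fignl1 (chr11:11800288-11808983) is the nearest, with a gap of 5.12 kb to Ddc (chr11:11814101-11898144), followed by Grb10 (chr11:11930499-12037428) at 32.4 kb and Ikzf1 (chr11:11684962-11772930) at 41.2 kb. Spata48 (chr11:11463744-11515192) lies 299 kb away, Cobl (chr11:12236676-12465022) 339 kb and Zpbp (chr11:11279624-11464223) 350 kb. The sources used here do not give the genome build of the array design, and these coordinates are those of RefSeq genes and not of the probes.

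The start regions of 4 members are shown because imprinting at this locus is bound up with methylation of CG-rich sequence, and because the genes measured here differ in it. The paper places the region that controls this imprinting in Grb10, and whether either Grb10 window covers it was not worked out. Each line holds 250 bases before to 50 bases after a RefSeq start, on the strand of the gene, with every CG in capitals. CG reads the same on both strands and cannot overlap itself. The windows are Grb10 start 1 (chr11:12037371-12037670, minus strand), Grb10 start 2 (chr11:12027922-12028221, minus strand), Fignl1 (chr11:11808913-11809212, minus strand), Ikzf1 start 1 (chr11:11685675-11685974, plus strand) and Zpbp (chr11:11462370-11462669, minus strand).
Grb10 start 1: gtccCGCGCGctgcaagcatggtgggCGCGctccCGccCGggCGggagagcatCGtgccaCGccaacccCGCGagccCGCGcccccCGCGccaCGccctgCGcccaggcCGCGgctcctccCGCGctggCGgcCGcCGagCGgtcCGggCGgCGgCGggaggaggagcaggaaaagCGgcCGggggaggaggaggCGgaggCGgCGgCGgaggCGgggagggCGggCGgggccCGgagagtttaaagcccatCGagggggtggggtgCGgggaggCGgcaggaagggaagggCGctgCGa
Grb10 start 2: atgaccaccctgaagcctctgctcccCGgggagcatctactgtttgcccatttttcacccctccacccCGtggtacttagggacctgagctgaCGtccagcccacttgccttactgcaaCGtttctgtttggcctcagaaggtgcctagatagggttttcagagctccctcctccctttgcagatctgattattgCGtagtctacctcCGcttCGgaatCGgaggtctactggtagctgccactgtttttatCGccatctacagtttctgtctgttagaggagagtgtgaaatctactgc
Fignl1: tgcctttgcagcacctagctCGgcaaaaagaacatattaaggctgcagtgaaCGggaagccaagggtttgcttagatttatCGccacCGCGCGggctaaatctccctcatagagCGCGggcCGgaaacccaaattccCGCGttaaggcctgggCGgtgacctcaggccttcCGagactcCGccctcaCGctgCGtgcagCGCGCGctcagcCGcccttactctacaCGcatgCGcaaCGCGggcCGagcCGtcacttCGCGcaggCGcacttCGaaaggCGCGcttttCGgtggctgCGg
Ikzf1 start 1: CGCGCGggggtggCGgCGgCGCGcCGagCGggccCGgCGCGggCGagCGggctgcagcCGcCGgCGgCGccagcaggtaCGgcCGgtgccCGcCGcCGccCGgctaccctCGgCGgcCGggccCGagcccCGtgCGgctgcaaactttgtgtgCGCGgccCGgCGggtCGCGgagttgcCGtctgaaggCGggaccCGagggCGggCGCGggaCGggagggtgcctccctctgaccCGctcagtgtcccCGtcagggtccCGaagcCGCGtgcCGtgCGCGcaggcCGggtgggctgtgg
Zpbp: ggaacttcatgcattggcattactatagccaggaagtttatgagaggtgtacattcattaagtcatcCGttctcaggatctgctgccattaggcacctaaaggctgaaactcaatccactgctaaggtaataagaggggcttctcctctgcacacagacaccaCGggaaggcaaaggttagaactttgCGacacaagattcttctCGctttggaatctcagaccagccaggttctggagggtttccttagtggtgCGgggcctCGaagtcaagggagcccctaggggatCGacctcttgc

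All 6 genes matched the RefSeq table, with 11 start windows in all, and the median over 32851 windows of this length was 7 CG. Grb10 start 1 holds 45 CG, a count reached by 1.93% of all windows, whereas its start 2 holds 9, a count reached by 45.8%. Fignl1 holds 34 (7.73%) and Ikzf1 start 1 holds 52 (0.575%), but Zpbp holds 7 (52.1%). Methylation was not measured here, and nothing about it is drawn from these letters.

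The deposited log2 signals of 45267 probes spanned 4.58 to 15.59, with array medians between 5.611 and 5.618 and correlations between arrays of 0.983 to 0.992. Cardiac muscle markers (6 of 7 measured) averaged 14.62 to 14.76 over the hearts, so that the markers of the labelled tissue were high in all of them. At its probe ILMN_1260450, Ddc separated the KO and PatKO hearts from each other and from the controls, as labelled. It lay at 9.12 in the KO heart, 10.22 to 10.44 in PatKO hearts, 13.42 to 13.99 in MatKO hearts and 13.66 to 14.12 in WT hearts. MatKO and WT hearts overlapped, so this probe does not check those labels against each other. Liver markers (8 of 8 measured) did not follow genotype alone: their mean was 11.23 in the KO heart, 10.41, 9.76, 5.87 and 10.20 in PatKO hearts, 5.88, 6.11, 9.21 and 8.61 in MatKO hearts, and 6.02, 6.41 and 6.72 in WT hearts. Of these markers Alb, the gene of serum albumin, stayed near the floor in all hearts (4.78 to 5.32), whereas Afp, the gene of fetal alpha-fetoprotein, spanned 4.88 to 12.62. The sources used here do not give which hearts shared a slide or a litter.

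The 6 genes did not give equally usable signals. A mean under 7 over the 12 hearts was taken as dim, and 13 of the 16 member probes were dim, against 64.4% of all probes. At the other end, Grb10 ILMN_2518412 had a mean of 15.32, within 0.27 of the highest value on the arrays, where a probe can hardly rise further. Only Grb10 ILMN_2546546 (mean 11.22) and Fignl1 ILMN_2663604 (mean 12.16) lay well inside the range in which a rise and a fall can both be seen.

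**Figure D1:**
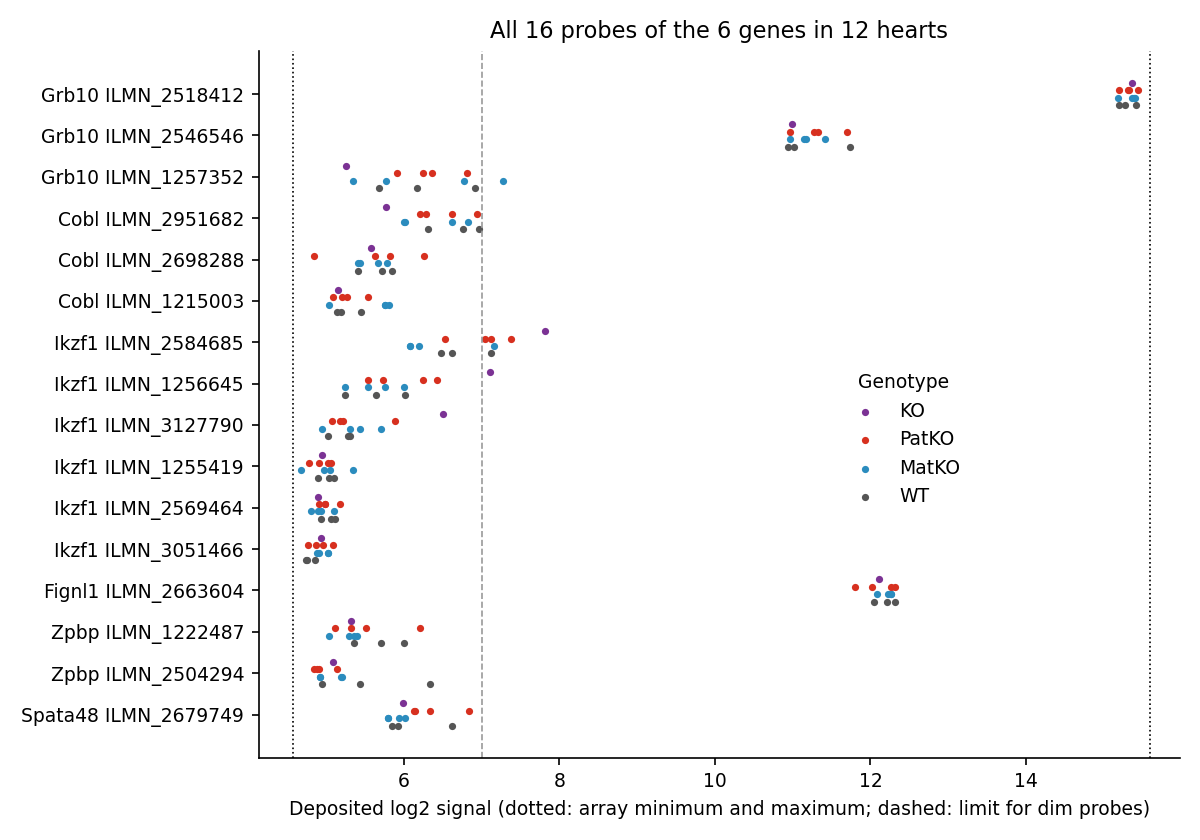
Log2 signal (x axis) of each of the 16 member probes (rows, by gene) in every heart, with 1 point per heart coloured by genotype, dotted lines at the lowest and highest array values and a dashed line at 7. Grb10 ILMN_2518412 lies against the array maximum of 15.59, 13 probes have means under 7, and the genotypes overlap in most rows.

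No member probe passed an adjusted p of 0.05 (limma, Benjamini-Hochberg over all probes) in any comparison. For PatKO minus WT 0 of 16 were called, against 0.00663% of all probes, and the smallest adjusted p among members was 1. For MatKO minus WT 0 were called, against 0% of all probes, with a smallest adjusted p of 0.999. For KO minus WT 0 were called, against 0.0729% of all probes, with a smallest adjusted p of 0.333, and for PatKO minus MatKO 0 were called, against 0.00663%, with a smallest adjusted p of 0.638. For ablated minus control hearts 0 were called, against 0.00884%, with a smallest adjusted p of 0.849. With so few calls anywhere on the array, a count of 0 among 16 probes is what the share over all probes would give.

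At an unadjusted p under 0.05 (limma), PatKO minus WT gave 0 member probes higher and 1 lower, where 1.75% and 2.17% of all probes were higher and lower. MatKO minus WT gave 0 and 0, where the shares were 2.41% and 2.47%. KO minus WT gave 3 higher, all of Ikzf1, and 1 lower, a Cobl probe, where the shares were 3.23% and 1.69%. PatKO minus MatKO gave 2 higher, of Ikzf1 and Spata48, and 0 lower, where the shares were 3.3% and 3.82%, and ablated minus control gave 2 higher, both of Ikzf1, and 0 lower, where the shares were 2.78% and 2.68%. The median difference over the 16 probes was 0.02, -0.03, -0.10, 0.06 and 0.02 on the log2 scale in these 5 comparisons in turn, beside 0, 0, -0.02, 0 and -0.01 over all probes. The 3 higher probes for KO minus WT exceed the share over all probes, but they belong to 1 gene and rest on 1 heart, and the comparisons share hearts, so the counts are not independent of each other.

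Grb10 was the member of main interest, and its signal at the probe well inside the range did not separate the genotypes. The sources used here do not give which Grb10 transcripts each probe reads. This probe, ILMN_2546546, annotated to the cDNA AK012646, read 10.99 in the KO heart. It read 11.70, 10.97, 11.33 and 11.28 in PatKO hearts, 11.15, 11.41, 11.17 and 10.96 in MatKO hearts, and 11.74, 10.94 and 11.02 in WT hearts. The highest value was in a WT heart and the next in a PatKO heart, the lowest was also in a WT heart, and all 4 genotypes overlapped.

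The means of this Grb10 probe were 11.32 ± 0.302 in PatKO hearts (SD, n = 4), 11.17 ± 0.185 in MatKO hearts (n = 4) and 11.23 ± 0.442 in WT hearts (n = 3). PatKO minus MatKO, where the mutated parental chromosome and the Ddc level both differ, was 0.15 on the log2 scale (SE 0.20, 95% interval -0.29 to 0.58, exact two-sided permutation p = 0.429). PatKO minus WT was 0.09 (SE 0.21, 95% interval -0.39 to 0.56), a fold of 1.06 with an interval of 0.765 to 1.47 (exact permutation p = 0.83). Both intervals span differences in either direction, up to about the size of their bounds. MatKO minus WT was -0.06 (SE 0.21, 95% interval -0.53 to 0.41), and the KO heart differed from WT by -0.25 (SE 0.32, 95% interval -0.96 to 0.47). In whole hearts, fewer cells that express a gene and less of its RNA per cell cannot be told apart, here and in what follows.

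The Grb10 probe ILMN_2518412, annotated to the transcript NM_010345, was the brightest member probe and read 15.37 in the KO heart. It read 15.32, 15.44, 15.31 and 15.20 in PatKO hearts, 15.18, 15.40, 15.36 and 15.39 in MatKO hearts, and 15.42, 15.20 and 15.28 in WT hearts. The whole spread over the 12 hearts was 0.26, and PatKO, MatKO and WT hearts each covered most of it. PatKO minus WT was 0.02 (SE 0.10) and PatKO minus MatKO was -0.02. The within-genotype SD of this probe was 0.103, near the median of 0.0789 over the 172 probes within 0.5 of the array maximum and below the median of 0.17 over 2333 probes with means of 11 to 12, so the small differences at this probe were measured where the scale is compressed and show only that the signal was high everywhere.

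The third Grb10 probe, ILMN_1257352 (cDNA AK080969), was dim, with 5.25 in the KO heart. It read 6.82, 5.91, 6.25 and 6.37 in PatKO hearts, 6.77, 7.27, 5.77 and 5.34 in MatKO hearts, and 6.92, 5.68 and 6.17 in WT hearts. The KO heart was the lowest of all 12, with a difference from WT of -1.0 (SE 0.67, limma adjusted p = 1), and the other genotypes overlapped. Over the 12 hearts this probe and ILMN_2546546 varied together (r = 0.77), whereas the bright probe ILMN_2518412 followed neither (r = -0.05 and 0.18). ILMN_2546546 did not vary with the 3 Ddc probes (r = -0.09, -0.02 and -0.08), although Ddc itself spans a wide range across these hearts.

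Fignl1, which encodes an AAA ATPase of homologous recombination and is the gene nearest to Ddc, did not separate the genotypes either. Its probe ILMN_2663604 read 12.11 in the KO heart, 12.32, 12.26, 12.02 and 11.80 in PatKO hearts, 12.23, 12.08, 12.26 and 12.27 in MatKO hearts, and 12.32, 12.05 and 12.22 in WT hearts. A single PatKO heart, replicate 4, was the lowest, and the other 11 hearts lay close together. Means were 12.1 ± 0.241 in PatKO hearts (SD, n = 4), 12.21 ± 0.0899 in MatKO hearts (n = 4) and 12.2 ± 0.141 in WT hearts (n = 3). PatKO minus WT was -0.10 (SE 0.13, 95% interval -0.39 to 0.19, exact permutation p = 0.571), and PatKO minus MatKO was -0.11 (SE 0.12, 95% interval -0.38 to 0.16, exact permutation p = 0.486). MatKO minus WT was 0.01 (95% interval -0.28 to 0.31), KO minus WT was -0.08 (SE 0.20), and ablated minus control was -0.10 (SE 0.09, 95% interval -0.30 to 0.10).

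**Figure D2:**
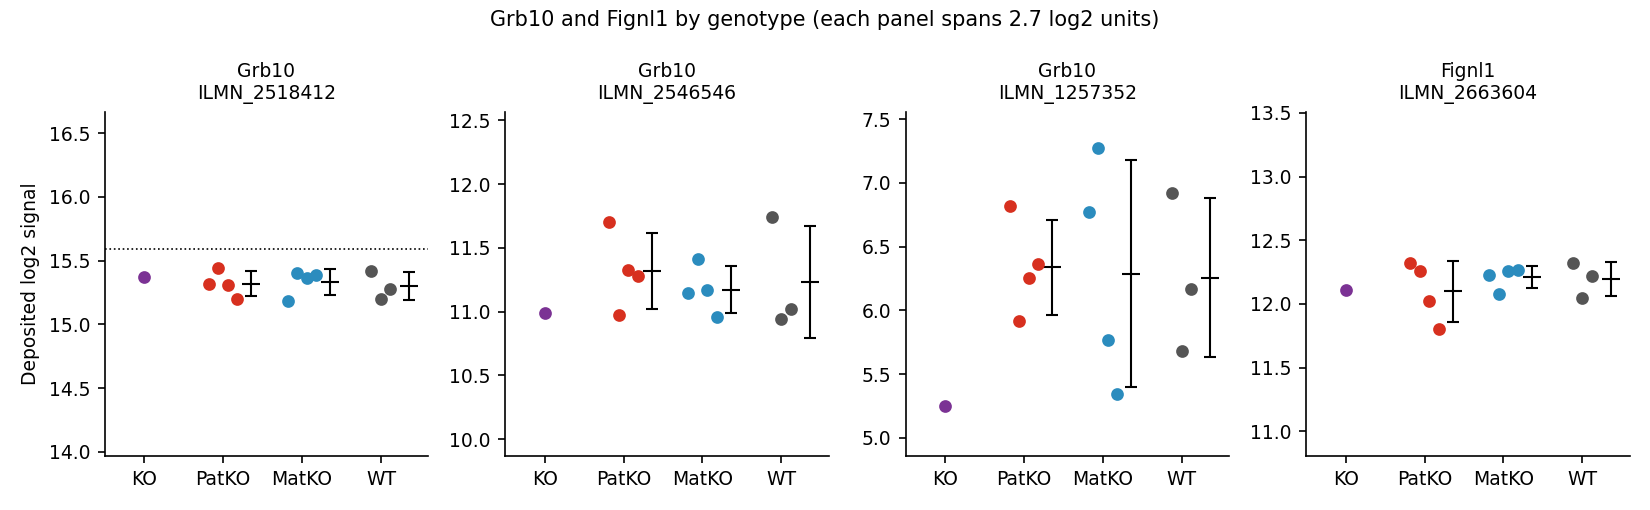
Log2 signal (y axis) of the 3 Grb10 probes and of Fignl1 ILMN_2663604 in each heart by genotype (KO, PatKO, MatKO, WT from left to right), with a point per heart and the group mean with SD where a genotype has more than 1 heart (dotted line, array maximum). PatKO, MatKO and WT hearts overlap in each panel, and the means of Grb10 ILMN_2546546 are 11.32, 11.17 and 11.23 in PatKO, MatKO and WT hearts.

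Ikzf1, which encodes the zinc finger factor Ikaros of blood cells and their precursors, gave the largest differences among the members, mostly from the KO heart. Its brightest probe, ILMN_2584685 (cDNA AK088636), read 7.82 in the KO heart, 7.13, 7.38, 6.53 and 7.04 in PatKO hearts, 6.07, 6.19, 7.16 and 6.07 in MatKO hearts, and 6.47, 7.12 and 6.61 in WT hearts. The KO heart was the highest of all, and the PatKO hearts overlapped the MatKO hearts only through MatKO replicate 3. KO minus WT was 1.08 (SE 0.43, limma adjusted p = 0.919). PatKO minus MatKO was 0.65 (SE 0.26, limma adjusted p = 0.64, exact permutation p = 0.114), and without MatKO replicate 3 it was 0.91 (limma adjusted p = 0.412). PatKO minus WT was 0.29 (SE 0.29) and MatKO minus WT was -0.36.

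The Ikzf1 probe ILMN_1256645 (NM_009578) read 7.10 in the KO heart, 6.25, 6.42, 5.73 and 5.54 in PatKO hearts, 5.25, 5.54, 6.0 and 5.75 in MatKO hearts, and 5.25, 5.64 and 6.02 in WT hearts. The KO heart was again the highest, while PatKO, MatKO and WT hearts overlapped. KO minus WT was 1.47 (SE 0.39, limma adjusted p = 0.401). ILMN_3127790 (NM_001025597) read 6.51 in the KO heart, 5.89, 5.22, 5.08 and 5.17 in PatKO hearts, 4.95, 5.31, 5.70 and 5.44 in MatKO hearts, and 5.29, 5.02 and 5.31 in WT hearts. Here too the KO heart stood above all others, with a difference from WT of 1.30 (SE 0.32, limma adjusted p = 0.333), the smallest adjusted p among the member probes.

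For ablated minus control hearts, Ikzf1 ILMN_2584685 differed by 0.65 (SE 0.24, limma adjusted p = 0.849, exact permutation p = 0.0455) and ILMN_1256645 by 0.57 (SE 0.24, limma adjusted p = 0.889, exact permutation p = 0.0505). Without the KO heart these were 0.49 (SE 0.24, limma adjusted p = 0.896) and 0.35 (SE 0.20, limma adjusted p = 0.923), and neither passed an unadjusted p of 0.05. The other 3 Ikzf1 probes had means of 4.98, 4.98 and 4.90, at the level of the array floor. Among these, ILMN_3051466 read 4.88 to 5.03 in MatKO hearts and 4.74 to 4.86 in WT hearts, a difference of 0.18 without overlap (exact permutation p = 0.0571). It was 1 of 16 member probes that were higher without overlap in MatKO than in WT hearts, where 2.65% of all probes were.

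**Figure D3:**
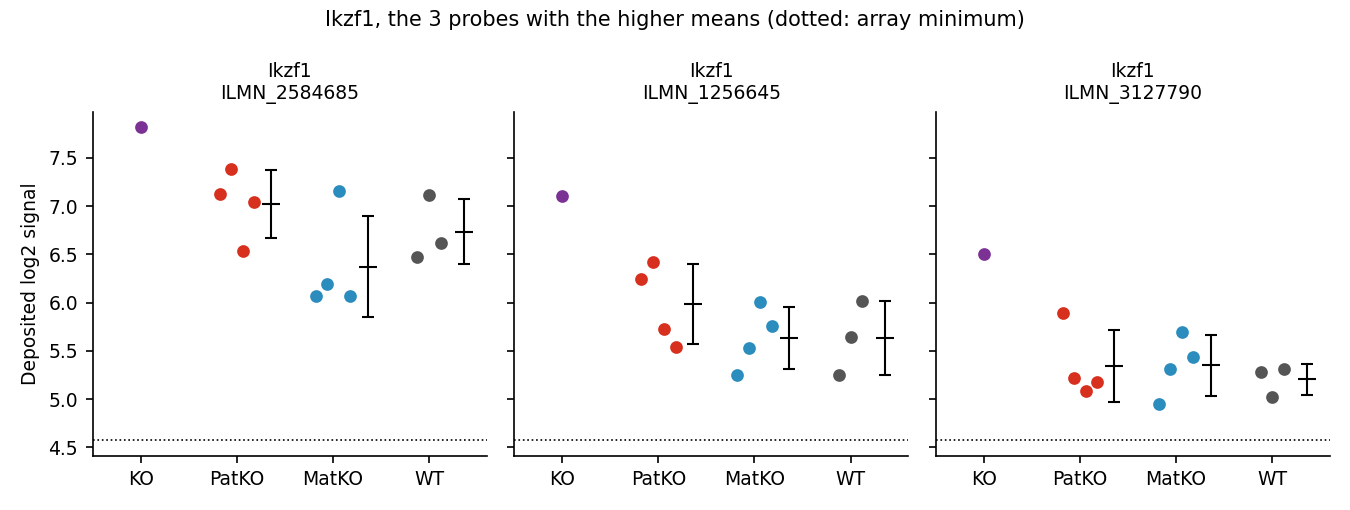
Log2 signal (y axis) of the 3 Ikzf1 probes with the higher means (panels) in each heart by genotype (KO, PatKO, MatKO, WT from left to right), with a point per heart and the group mean with SD where a genotype has more than 1 heart (dotted line, array minimum). The KO heart is the highest at each probe, at 7.82, 7.10 and 6.51.

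With a single KO heart, lying outside the WT range is common: 22.4% of all probes were higher and 23.5% lower in the KO heart than in every WT heart. Of the 16 member probes, 4 were higher, all of Ikzf1, and 4 were lower (Grb10 ILMN_1257352, Cobl ILMN_2951682, Ikzf1 ILMN_2569464 and Zpbp ILMN_1222487). These shares are near those of the array as a whole.

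Marker means of other cell types were set beside Ikzf1. The mean of red cell markers (5 of 6 measured) was 11.98 in the KO heart, 10.62 to 11.36 in PatKO hearts, 10.59 to 10.98 in MatKO hearts and 10.67 to 11.05 in WT hearts, so that the KO heart was the highest as for Ikzf1. The mean of liver markers was also highest in the KO heart, and that of neuron markers (7 of 8 measured) was 7.22 there and 6.09 to 6.79 in the other hearts. White blood cell markers (7 of 8 measured) averaged 8.29 in the KO heart, 7.75 to 8.80 in PatKO hearts, 7.82 to 8.18 in MatKO hearts and 7.70 to 8.29 in WT hearts, and their defining gene Ptprc read 5.74 in the KO heart and 4.72 to 5.34 in the others. For KO minus WT, Ptprc differed by 0.63 (SE 0.22, limma adjusted p = 0.757) and Coro1a, an actin binder of blood cells, by 0.99 (SE 0.41, limma adjusted p = 0.955). In that comparison 6 of the 7 were higher, and 2 were past an unadjusted p of 0.05, beside 3.23% of all probes higher.

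Over the 12 hearts the 3 brighter Ikzf1 probes, taken in the order ILMN_2584685, ILMN_1256645, ILMN_3127790, correlated with the red cell mean at r = 0.74, 0.73 and 0.79, with the liver mean at 0.73, 0.74 and 0.71, with the neuron mean at 0.66, 0.71 and 0.73, and with the white blood cell mean at 0.47, 0.44 and -0.01. Among themselves they correlated at 0.60 to 0.80. Both measures of a point come from the same array, and the KO heart is the highest for Ikzf1 and for the red cell, liver and neuron means. With the liver marker mean as a covariate, an alternative chosen after the data had been seen, KO minus WT was 0.28 (SE 0.46), 0.88 (SE 0.46) and 0.72 (SE 0.35) for the 3 probes, none past an unadjusted p of 0.05, and PatKO minus MatKO at ILMN_2584685 was 0.38. The part that other cell types have in the Ikzf1 differences was not tested beyond these values.

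**Figure D4:**
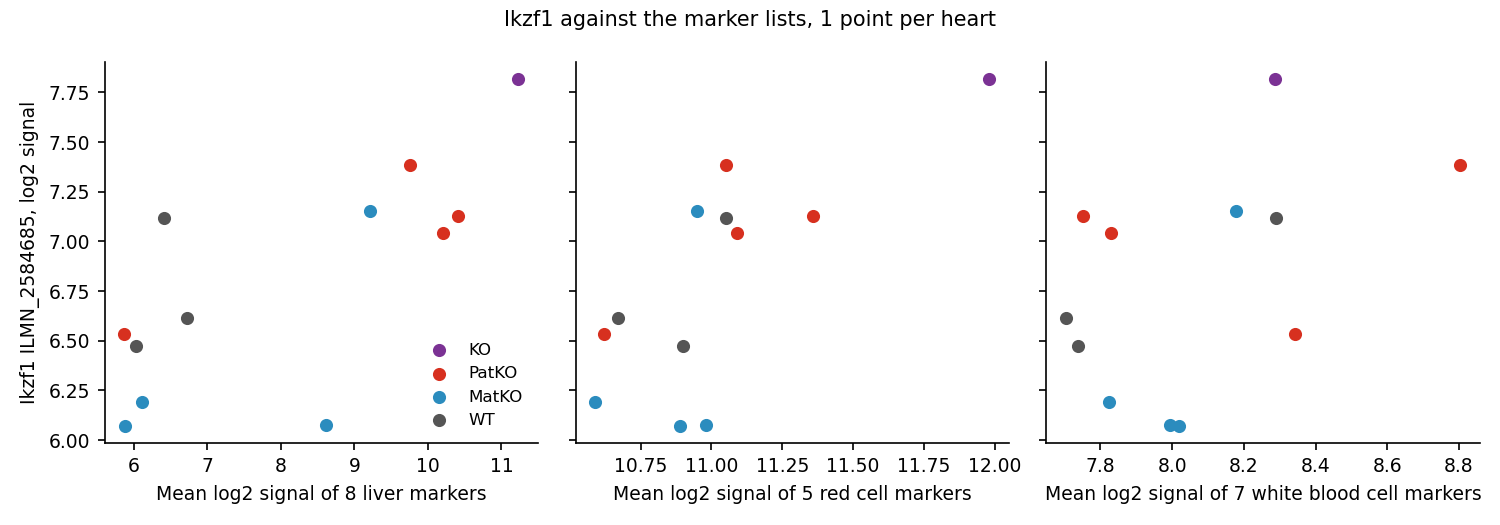
Log2 signal of Ikzf1 ILMN_2584685 (y axis) against the mean log2 signal of liver, red cell and white blood cell markers (x axis, 1 panel per list), with 1 point per heart coloured by genotype (n = 12). The KO heart lies at the top and furthest right for liver and red cell markers (11.23 and 11.98), but not for white blood cell markers (8.29).

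Cobl, which encodes the actin nucleator Cordon-bleu, was dim at all 3 of its probes. The brightest, ILMN_2951682, read 5.77 in the KO heart, 6.94, 6.62, 6.29 and 6.21 in PatKO hearts, 6.63, 6.01, 6.82 and 6.0 in MatKO hearts, and 6.31, 6.97 and 6.76 in WT hearts. The KO heart was the lowest, and the other genotypes overlapped. KO minus WT was -0.91 (SE 0.38, limma adjusted p = 0.976), and it missed an unadjusted p of 0.05 without WT replicate 2 (-0.76, SE 0.40) or WT replicate 3 (-0.87, SE 0.42). PatKO minus MatKO was 0.15 (SE 0.23) and PatKO minus WT was -0.16 (SE 0.25). ILMN_2698288 had a mean of 5.62 (4.85 to 6.25) and ILMN_1215003 a mean of 5.37 (5.04 to 5.81), with the KO heart inside the range of WT hearts at both. The low value of the KO heart at ILMN_2951682 was thus not shared by the other Cobl probes. Their means lay only 1.04 and 0.79 above the array minimum, where a fall can hardly be seen.

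Spata48 and Zpbp are named for spermatogenesis and for a protein of the sperm acrosome that binds the zona pellucida, and both were dim in heart. Spata48 ILMN_2679749 read 5.99 in the KO heart, 6.15, 6.13, 6.84 and 6.33 in PatKO hearts, 5.80, 5.79, 6.01 and 5.94 in MatKO hearts, and 5.93, 6.62 and 5.85 in WT hearts. All PatKO hearts lay above all MatKO hearts, but WT hearts covered both ranges in part. PatKO minus MatKO was 0.48 (SE 0.19, limma adjusted p = 0.638, exact permutation p = 0.0286, which is the lower limit with 70 splits), and without PatKO replicate 3 it was 0.32 (SE 0.17, limma adjusted p = 0.868). It was the only member probe higher without overlap in PatKO than in MatKO hearts, where 2.15% of all probes were. Against WT, PatKO differed by 0.23 (SE 0.21) and MatKO by -0.25 (SE 0.21).

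The Zpbp probe ILMN_2504294 read 5.09 in the KO heart, 4.84, 4.89, 4.91 and 5.14 in PatKO hearts, 4.92, 5.21, 5.20 and 4.92 in MatKO hearts, and 6.33, 4.95 and 5.43 in WT hearts. WT replicate 1 stood above all other hearts, which lay near the floor. PatKO minus WT was -0.63 (SE 0.25, limma adjusted p = 1, exact permutation p = 0.0571), and without WT replicate 1 it was -0.25 (SE 0.16, limma adjusted p = 0.875). At the other Zpbp probe, ILMN_1222487, the mean was 5.47 (5.04 to 6.21) and the highest heart was PatKO replicate 3. The testis and sperm marker list (6 of 6 measured, all dim) averaged 5.08 to 5.57 over the hearts, with WT replicate 1 at the top of that range. Its member Zpbp2, a relative of Zpbp, read 7.05 in WT replicate 1 and 4.93 to 5.77 in the others. The rest of the list went both ways in WT replicate 1: Spata16 was at its highest there (6.375) and Tnp1 at its lowest (5.034).

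Along the chromosome, Ddc stood apart from the genes around it. The nearest members, Fignl1 and Grb10, differed by -0.10 and 0.09 between PatKO and WT hearts at their usable probes, while Ddc between them differed by -3.50 (95% interval -3.86 to -3.15). Of the 20 wider neighbours, the 10 genes with a probe on each side of the members, 7 were dim and 0 were called in any comparison (limma). At an unadjusted p under 0.05, 1 was higher and 1 lower for PatKO minus WT, MatKO minus WT, PatKO minus MatKO and ablated minus control, and 1 was higher and 0 lower for KO minus WT.

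Plek, which encodes pleckstrin of platelets and white blood cells, was the wider neighbour that was higher most often. It read 7.81 in the KO heart, 6.95, 8.27, 7.57 and 7.25 in PatKO hearts, 6.96, 6.77, 6.78 and 6.97 in MatKO hearts, and 6.18, 7.05 and 6.81 in WT hearts. The ablated hearts lay mostly above the controls, with overlap at PatKO replicate 1. Ablated minus control was 0.78 (SE 0.21, limma adjusted p = 0.723), PatKO minus WT 0.83 (SE 0.28), PatKO minus MatKO 0.64 (SE 0.26) and KO minus WT 1.13 (SE 0.43), each past an unadjusted p of 0.05.

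Igfbp3, which encodes a binding protein of the IGFs, read 11.58 in the KO heart, 11.06, 10.93, 10.78 and 10.35 in PatKO hearts, 11.24, 11.58, 11.53 and 11.49 in MatKO hearts, and 11.66, 11.69 and 10.67 in WT hearts. The KO heart lay at the level of the MatKO hearts and not of the PatKO hearts, and WT replicate 3 lay among the PatKO hearts. PatKO minus MatKO was -0.68 (SE 0.23, limma adjusted p = 0.544), PatKO minus WT -0.56 (SE 0.24) and ablated minus control -0.47 (SE 0.21). Between MatKO and WT hearts Wdr92 differed by -0.69 (SE 0.19) and C1d, which was dim, by 0.27 (SE 0.12), both at a limma adjusted p of 0.999.

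**Figure D5:**
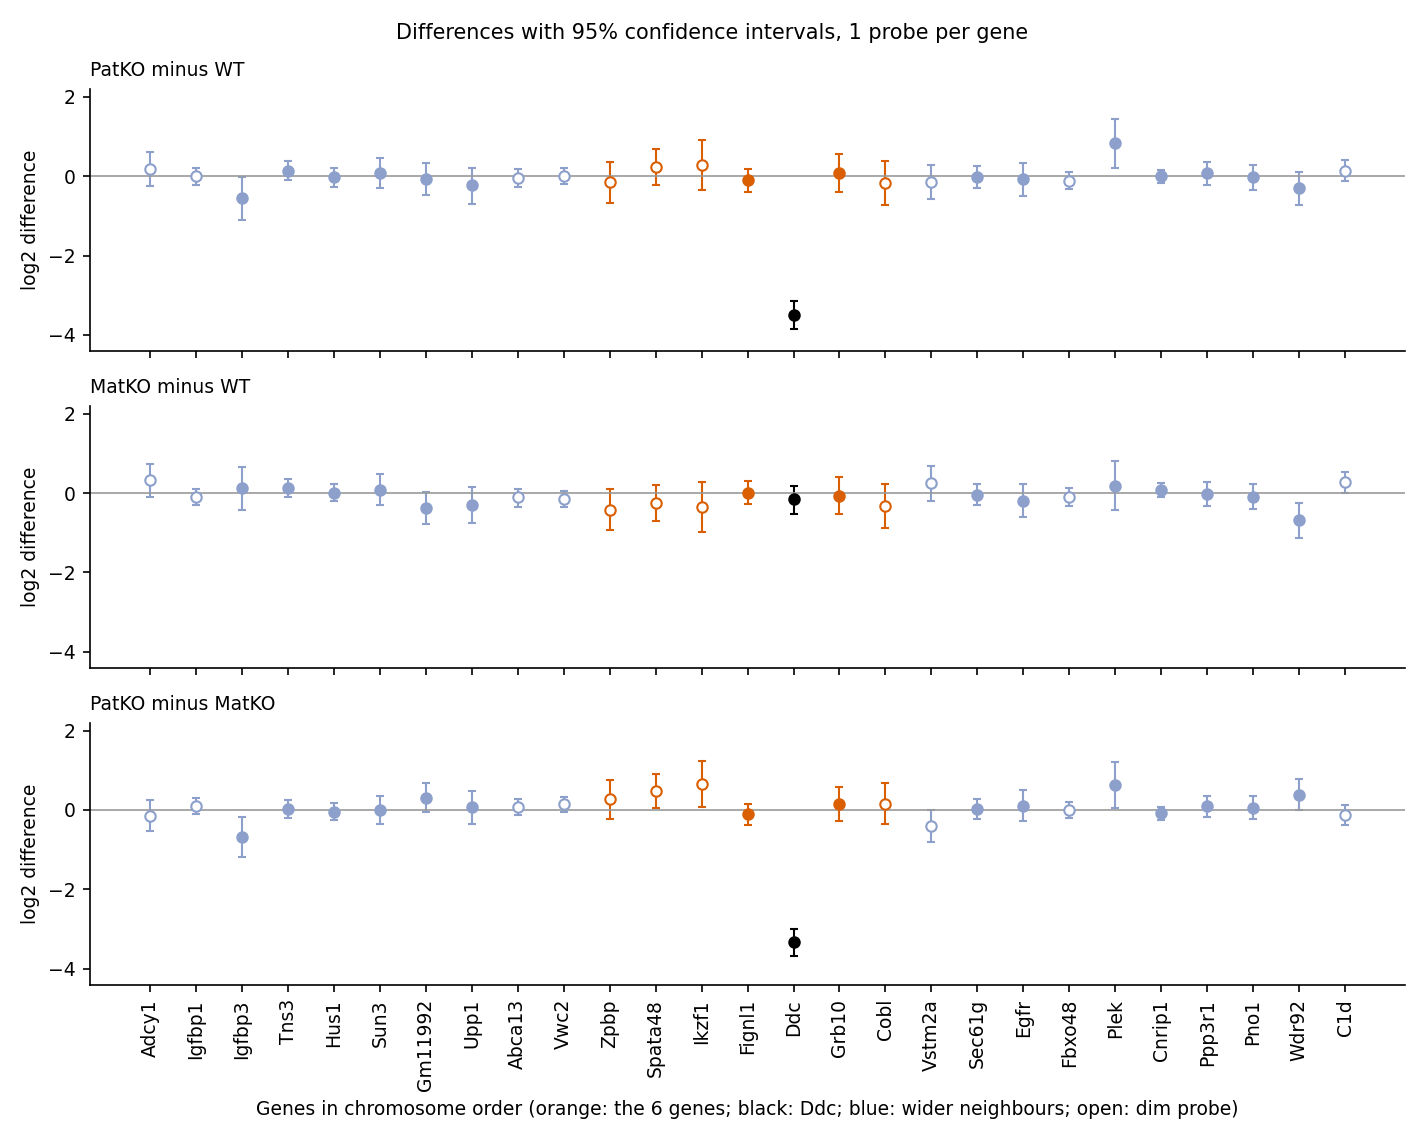
Log2 difference with 95% interval (y axis) at 1 probe each of Ddc (black), the 6 members (orange) and 20 wider neighbours (blue; open symbols, dim probes) in gene order along chromosome 11 (x axis, evenly spaced), for PatKO minus WT, MatKO minus WT and PatKO minus MatKO. Ddc stands apart at -3.50 for PatKO minus WT, and the interval of every member at the plotted probe covers 0 for PatKO minus WT and MatKO minus WT, while for PatKO minus MatKO those of Ikzf1 (0.07 to 1.23) and Spata48 (0.05 to 0.90) lie above 0.

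The insulin and IGF pathway, in which Grb10 acts, was described from a list of 29 genes, of which 27 were measured and 6 were dim. No gene of the list was called in any comparison (limma, adjusted p). At an unadjusted p under 0.05, 1 was higher and 0 lower for PatKO minus WT, 0 and 0 for MatKO minus WT, 2 and 2 for KO minus WT, 2 and 0 for PatKO minus MatKO, and 2 and 3 for ablated minus control. The median difference of the list was -0.03, -0.03, -0.08, 0.02 and -0.03 in these comparisons, beside 0, 0, -0.02, 0 and -0.01 over all probes, and the shares of all probes past this p were 3.93%, 4.88%, 4.91%, 7.12% and 5.46%.

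Insr, the insulin receptor that Grb10 binds, read 12.95, 13.02, 12.80 and 12.77 in PatKO hearts and 12.58, 12.41, 12.72 and 12.53 in MatKO hearts, which did not overlap, as was so for 2.15% of all probes in this direction. It read 12.78 in the KO heart and 12.90, 12.71 and 12.66 in WT hearts, which overlapped both PatKO and MatKO hearts, and PatKO minus WT was 0.13 (SE 0.11, limma adjusted p = 1). PatKO minus MatKO was 0.33 (SE 0.10, limma adjusted p = 0.492), and ablated minus control was 0.22 (SE 0.09, limma adjusted p = 0.876). Pik3r1, the regulatory subunit of PI3 kinase, differed by 0.34 (SE 0.11, limma adjusted p = 0.554) and 0.27 (SE 0.09, limma adjusted p = 0.814) in the same comparisons. For ablated minus control Akt1, at a dim probe, differed by -0.37 (SE 0.13, limma adjusted p = 0.814) and Foxo1, a transcription factor held back by this pathway, by -0.22 (SE 0.09, limma adjusted p = 0.889).

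Grb7, a relative of Grb10 in this list, was dim and read 7.88 in the KO heart, 7.30, 7.07, 5.45 and 6.79 in PatKO hearts, 6.55, 6.57, 6.45 and 6.43 in MatKO hearts, and 6.24, 5.78 and 5.38 in WT hearts. The KO heart was the highest, and a PatKO heart, replicate 3, was among the lowest. PatKO replicate 3 was also the PatKO heart with the lowest liver marker mean (5.87). In MatKO hearts, whose liver marker means ran from 5.88 to 9.21, Grb7 stayed at 6.43 to 6.57. The part of other cell types in the Grb7 differences was not tested. KO minus WT was 2.08 (SE 0.56, limma adjusted p = 0.418) and PatKO minus WT was 0.85 (SE 0.37, limma adjusted p = 1). In the KO heart Akt2 differed from WT by 0.73 (SE 0.21) and Kdr, a receptor of endothelial cells, by -0.79 (SE 0.25), both at dim probes. Pik3ca, the catalytic subunit of PI3 kinase, differed by -0.46 (SE 0.18).

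Relatives of the members were also measured, in a list of 11 genes of which 10 had a probe and 5 were dim, and 0 were called in any comparison (limma). Grb14, a relative of Grb10 that also binds the insulin receptor, read 11.51 in the KO heart and averaged 11.64 in PatKO, 11.28 in MatKO and 11.36 in WT hearts. The relatives of Cobl, Fignl1 and Ikzf1 above the limit for dim probes were Cobll1 (9.75 to 10.62 over the 12 hearts), Fign (10.08 to 10.60), Spast (10.49 to 10.97) and Ikzf5 (10.05 to 10.51). Among these only Cobll1 for MatKO minus WT passed an unadjusted p of 0.05 (-0.42, SE 0.17, limma adjusted p = 0.999). Ikzf2, Ikzf3 and Fignl2 were dim, with means of 5.01, 5.85 and 4.97. Zpbp2, at a dim probe, differed by -0.97 for PatKO minus WT (SE 0.29, limma adjusted p = 1). It also differed by -0.81 for MatKO minus WT (SE 0.29, limma adjusted p = 0.999) and by -1.2 for KO minus WT. Its values were 7.05, 5.56 and 5.77 in the WT hearts.

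The genes whose brightest probes varied most like the usable Grb10 probe over the 12 hearts, among 9297 candidates with a mean of 7 or more, were Tmem164 (r = 0.93), Kcnq1ot1, Hsd3b2 and D130007C19Rik (r = 0.91 each) and Enah (r = 0.89). For Fignl1 they were Tpm3 (r = 0.89), Hsp90aa1 (r = 0.88), Sms-ps (r = 0.86), Adprm and Pa2g4 (r = 0.85 each). Only Adprm among these 10 is on chromosome 11. Correlations over 12 hearts picked from so many genes describe these arrays alone.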

How the data were processed

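Expression was measured in 12 hearts, 1 array each, and samples were grouped by their genotype labels. The authors corrected the background with neqc and normalized the arrays, and the deposited values are log2 signals; GenomeStudio and limma are the tools listed in the submitters' processing notes, without versions. The methods name Affymetrix arrays, but the probe names are Illumina's. A deposited scanner table of 24 columns was not used here, because its column names pair with no heart. Slide and litter are not given for any heart, no batch term was fitted, and the p-values measure the spread between these hearts.

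Gene names came from the platform annotation and were brought up to date with RefSeq: 34875 had 1 symbol, 18 had several and 10374 were unlisted. All 45267 probes were fitted in limma 3.58.1 (R 4.3.3; lmFit, eBayes), either with 4 genotypes or with 2 groups (ablated, control). A Benjamini-Hochberg adjusted p under 0.05, taken over every probe, was a call. This step was tested on simulated data. Exact two-sided permutation tests were run over 35, 70 or 792 splits. Probes with a mean under 7 were called dim. The number of arrays limits the precision, which the SE and 95% interval give.

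All member probes are described. Other genes were named where their unadjusted p was under 0.05, at most 4 per comparison by smallest p, in the insulin and IGF list and among the 10 wider neighbours on each side; every relative with a probe was named. Partners of Cobl and Fignl1 and marker lists of cardiac muscle, red cells, white blood cells, liver, neurons, testis and sperm, epicardium and fibroblasts were counted in the same way. For lists the brightest probe of a gene was used. The members and lists were chosen with earlier results of these data known. The alternatives tried were array weights, Xist as a covariate, the replicate number as a block, a robust variance with a trend, only the arrays compared or the fit of 4 levels, 100 added to the linear signal, dim probes left out, the mean of a gene's probes and each heart left out. The liver marker mean as a covariate was added after the data had been seen. Start windows and coordinates are those of RefSeq GRCm38.p6.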

Additional observations from a re-analysis of the deposited data

Results flagged for a closer look

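Of 32 sets of 4 hearts (16 probes in PatKO and in MatKO hearts), 3 held a heart whose distance from its nearest neighbour took up most of the range of the set. Chance gives this in about 1 in 20 sets. All 3 were at dim probes.

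At Ikzf1 ILMN_2584685, MatKO replicate 3 read 7.155, whereas the other MatKO hearts read 6.073 to 6.193. MatKO replicate 3 was also the MatKO heart with the highest liver marker mean (9.21) and white blood cell marker mean (8.18). Its red cell marker mean (10.95) was below that of MatKO replicate 4 (10.98). In MatKO replicate 4 the liver marker mean was 8.61, but this Ikzf1 probe read 6.074. At Cobl ILMN_1215003, MatKO replicate 3 read 5.042, whereas the other MatKO hearts read 5.756 to 5.812. At Ikzf1 ILMN_3127790, PatKO replicate 1 read 5.892, whereas the other PatKO hearts read 5.08 to 5.217. PatKO replicate 1 had the highest liver and red cell marker means of the PatKO hearts (10.41 and 11.36). The part of other cell types in these values was not tested.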

How the results depend on the processing

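The count of member probes called was 0 in all 5 comparisons under every alternative, while the calls over all probes ranged from 3 to 7 for PatKO minus WT (3 as reported), 0 to 4 for MatKO minus WT (0), 5 to 109 for KO minus WT (33), 3 to 7 for PatKO minus MatKO (3) and 3 to 19 for ablated minus control (4). At an unadjusted p under 0.05 the member counts ranged from 0 to 2, 0 to 2, 0 to 4, 0 to 3 and 0 to 3 in the same order (1, 0, 4, 2 and 2 as reported). Wider neighbours called stayed at 0. Insulin and IGF genes called stayed at 0 except for KO minus WT, which ranged from 0 to 1 on leaving out hearts and was 1 without PatKO replicate 3. Of 1163 values of 60 differences at 12 member probes, 1075 kept their direction and their side of the threshold and 88 changed sign, 57 on leaving out a heart and 31 under other settings, and the cause was not tested. Differences that changed sign were small against their SE or at dim probes.

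Same-numbered hearts deviated from their group means with correlations of -0.35 to 0.54 in 10 pairs, 2 of them over 0.1. Pairs of unlike number were not set beside them, so whether the numbers pair some of the hearts cannot be told from these values. With the replicate number as a block, member probes called were 0 in each comparison and Spata48 KO minus WT was 0.02. With Xist as a covariate, Grb10 ILMN_2546546 was -0.04 for PatKO minus WT and -0.03 for ablated minus control, Cobl ILMN_2698288 was 0.22 for PatKO minus WT and 0.01 for MatKO minus WT, Ikzf1 ILMN_3127790 was -0.08 for PatKO minus WT, and for MatKO minus WT Ikzf1 ILMN_1256645 was -0.05 and Fignl1 was -0.01. With 100 added, Cobl ILMN_2698288 was 0.01 for PatKO minus WT, Ikzf1 ILMN_1256645 was 0.00 for MatKO minus WT and Grb10 ILMN_1257352 was -0.02 for PatKO minus MatKO. With array weights, MatKO minus WT was 0.00 at Grb10 ILMN_2546546 and -0.05 at Ikzf1 ILMN_1256645. With the liver mean as a covariate, Grb10 ILMN_2518412 was 0.00 for PatKO minus WT and -0.02 for ablated minus control, Grb10 ILMN_1257352 was 0.33 for ablated minus control, Ikzf1 ILMN_2584685 was -0.16 for PatKO minus WT, Ikzf1 ILMN_3127790 was -0.19 for PatKO minus WT and -0.15 for ablated minus control, Ikzf1 ILMN_1256645 was -0.13 and Fignl1 -0.01 for MatKO minus WT, Spata48 was 0.17 for KO minus WT, Zpbp ILMN_1222487 was 0.26 for PatKO minus WT and 0.37 for KO minus WT, and Cobl ILMN_2698288 was -0.15 for PatKO minus MatKO and -0.23 for ablated minus control. As the mean of all probes, Grb10 was -0.39 for KO minus WT, 0.06 for PatKO minus MatKO and -0.03 for ablated minus control, Cobl was -0.03 for PatKO minus MatKO and Zpbp was -0.13 for ablated minus control.

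On leaving out each heart, Grb10 ILMN_2546546 ranged from -0.06 to 0.34 for PatKO minus WT, -0.21 to 0.19 for MatKO minus WT, -0.39 to 0.01 for KO minus WT and -0.06 to 0.15 for ablated minus control. Grb10 ILMN_2518412 ranged from -0.03 to 0.08 for PatKO minus WT, -0.02 to 0.10 for MatKO minus WT, -0.07 to 0.02 for PatKO minus MatKO and -0.02 to 0.04 for ablated minus control. Grb10 ILMN_1257352 ranged from -0.20 to 0.41, -0.29 to 0.37, -0.27 to 0.38 and -0.33 to 0.06 in the same order. Fignl1 ranged from -0.17 to 0.01 for PatKO minus WT and -0.06 to 0.08 for MatKO minus WT. Cobl ILMN_2698288 ranged from -0.23 to 0.24 for PatKO minus WT, -0.21 to 0.01 for MatKO minus WT, -0.20 to 0.02 for KO minus WT, -0.14 to 0.33 for PatKO minus MatKO and -0.14 to 0.21 for ablated minus control, and Cobl ILMN_2951682 from -0.27 to 0.02 for ablated minus control. Ikzf1 ILMN_1256645 ranged from -0.19 to 0.19 for MatKO minus WT, Ikzf1 ILMN_3127790 from -0.05 to 0.22 for PatKO minus WT and -0.19 to 0.11 for PatKO minus MatKO, Spata48 from -0.28 to 0.10 for KO minus WT, and Zpbp ILMN_1222487 from -0.37 to 0.01 for PatKO minus WT and -0.13 to 0.14 for ablated minus control. Of the 16 member probes, 7 lay within 1 of the array minimum and 1 within 0.5 of the maximum, where differences are compressed.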

Other observations

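Genes that act beside Cobl and Fignl1 were counted in the same way. Of 12 genes of actin nucleation and of Cobl partners, 11 were measured, 5 were dim and 0 were called in any comparison (limma). At an unadjusted p under 0.05, Pacsin2, which encodes a syndapin, was higher in PatKO than in MatKO hearts (0.41, SE 0.11, limma adjusted p = 0.459) and lower in MatKO than in WT hearts (-0.29, SE 0.12, limma adjusted p = 0.999). Spire2, at a dim probe, differed by 0.70 for KO minus WT (SE 0.18, limma adjusted p = 0.37) and by 0.32 for PatKO minus WT (SE 0.12, limma adjusted p = 1). Was, the actin regulator of blood cells, differed by 0.74 for ablated minus control (SE 0.25, limma adjusted p = 0.814). Of 7 genes of homologous recombination set beside Fignl1, 6 were measured, 2 were dim, and 0 passed an adjusted or an unadjusted p of 0.05 in any comparison (limma).

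Markers of epicardium and fibroblasts (4 of 5 measured) averaged 11.39 in the KO heart, 10.52 to 11.35 in PatKO hearts, 11.19 to 11.62 in MatKO hearts and 11.20 to 11.41 in WT hearts. At an unadjusted p under 0.05, 2 of the 4 were lower and 0 were higher for PatKO minus WT, for PatKO minus MatKO and for ablated minus control, beside 2.17%, 3.82% and 2.68% of all probes lower, and 0 were called (limma).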
